A study of Mus musculus with 66 samples.

Results

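H3K27me3, the trimethylation of lysine 27 on histone H3, was compared between mouse small intestinal organoids grown in EN and in CV. All 94469 regions of a union of peaks called over the whole series were taken, with the deposited H3K27me3 scores of the libraries EN1, EN2 and EN4 and of CV1, CV2 and CV3, that is 6 of the 66 libraries of the series. The organoids carry a GFP and diphtheria toxin receptor allele at Lgr5 (Lgr5GFPDTR/+), so every culture shares that allele. The basal medium, ENR, holds EGF, Noggin and R-Spondin-1, and ENR organoids are the mixed reference. CV organoids, labelled as enriched in stem cells, received CHIR99021 (3 μM), an inhibitor of the kinase GSK3, and valproic acid (1 mM), a histone deacetylase inhibitor, on top of ENR. EN organoids, labelled as differentiated, received EGF and Noggin without R-Spondin-1 and without either compound. EN and CV therefore differ in R-Spondin-1, in CHIR99021, in valproic acid, in the days spent in the medium (longer for CV) and in the cells they hold, and these cannot be told apart here. In these bulk samples, a lower score cannot be told from fewer cells that carry the mark. ENR2, ENR3 and ENR4 entered the same fit, and their scores are given as the reference.

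H3K27me3 is written by Polycomb repressive complex PRC2, in which Ezh2 or Ezh1 is the methyltransferase and Eed and Suz12 are required partners, and it is removed by the demethylases Kdm6a and Kdm6b. The mark typically lies over CpG-rich start sites of developmental regulators that a cell type keeps silent, such as Hox genes and signaling components of other tissues. In the intestinal epithelium, stem cells at the crypt base depend on Wnt signaling, and their progeny become absorptive enterocytes or secretory cells as they leave the crypt.

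The regions at which H3K27me3 rose and those at which it fell had different sequences, and a few of each are printed here from the mm9 genome, plus strand, 5′ to 3′. Annotated untranslated stretches were left out. For the rises, capitals mark CpG dinucleotides. The Vim sequence (chr2:13496098-13496316) lies at the start of the gene and holds 21 CpGs. The Rbpms sequence (chr8:35040573-35040872) lies at the start site and holds 24. The sequence 931 bp from a Hoxc6 start site (chr15:102829703-102830002) holds 18, and the sequence in the Pdgfc intron (chr3:80842793-80842971), 1.45 kb from that gene's start, holds 0.
Vim: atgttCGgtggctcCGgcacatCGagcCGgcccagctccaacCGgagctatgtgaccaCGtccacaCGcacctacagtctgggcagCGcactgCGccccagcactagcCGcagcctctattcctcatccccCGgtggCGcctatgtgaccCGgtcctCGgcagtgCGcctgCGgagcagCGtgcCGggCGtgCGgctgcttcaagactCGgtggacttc
Rbpms: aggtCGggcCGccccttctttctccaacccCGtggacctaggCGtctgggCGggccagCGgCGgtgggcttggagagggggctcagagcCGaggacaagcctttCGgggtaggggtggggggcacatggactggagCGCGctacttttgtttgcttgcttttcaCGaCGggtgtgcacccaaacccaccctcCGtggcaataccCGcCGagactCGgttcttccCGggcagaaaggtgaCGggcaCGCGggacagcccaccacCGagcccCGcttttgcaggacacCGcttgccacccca
Hoxc6, intron: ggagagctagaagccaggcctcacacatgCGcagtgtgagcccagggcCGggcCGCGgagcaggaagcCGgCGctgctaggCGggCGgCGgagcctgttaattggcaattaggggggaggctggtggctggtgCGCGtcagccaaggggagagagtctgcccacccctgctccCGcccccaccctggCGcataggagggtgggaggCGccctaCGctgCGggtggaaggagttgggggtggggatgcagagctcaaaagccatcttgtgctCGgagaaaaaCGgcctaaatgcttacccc
Pdgfc, intron: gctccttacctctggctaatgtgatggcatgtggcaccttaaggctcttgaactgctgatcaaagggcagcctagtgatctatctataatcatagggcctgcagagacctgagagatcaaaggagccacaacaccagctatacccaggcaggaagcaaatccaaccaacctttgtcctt

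For the falls, capitals mark runs of at least 8 bases built of CG and CA steps, read on either strand (GTGTGCGC is such a run). The sequence at Ccl6 (chr11:83402842-83403062) lies 315 bp from its start site and has 37 bases in capitals. The sequence near Calcoco1 (chr15:102643652-102643892) is intergenic, 91.0 kb from that gene, with 69 such bases. The one near Zfp365 (chr10:67383623-67383922) is intergenic, 8.19 kb away, with 97. A contrast is the intergenic sequence whose nearest protein-coding gene is Auts2 (chr5:133293564-133293656), 274 kb away, which fell as steeply and has none.
Ccl6: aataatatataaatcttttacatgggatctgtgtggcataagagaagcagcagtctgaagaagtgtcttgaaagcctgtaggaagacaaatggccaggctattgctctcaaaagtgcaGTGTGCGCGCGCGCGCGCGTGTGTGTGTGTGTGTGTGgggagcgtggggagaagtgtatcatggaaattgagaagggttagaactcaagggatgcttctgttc
Calcoco1, intergenic: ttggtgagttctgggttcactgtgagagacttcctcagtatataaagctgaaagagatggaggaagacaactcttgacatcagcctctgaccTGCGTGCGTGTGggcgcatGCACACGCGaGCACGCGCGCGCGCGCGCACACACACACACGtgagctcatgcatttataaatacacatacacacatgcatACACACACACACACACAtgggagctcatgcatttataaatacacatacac
Zfp365, intergenic: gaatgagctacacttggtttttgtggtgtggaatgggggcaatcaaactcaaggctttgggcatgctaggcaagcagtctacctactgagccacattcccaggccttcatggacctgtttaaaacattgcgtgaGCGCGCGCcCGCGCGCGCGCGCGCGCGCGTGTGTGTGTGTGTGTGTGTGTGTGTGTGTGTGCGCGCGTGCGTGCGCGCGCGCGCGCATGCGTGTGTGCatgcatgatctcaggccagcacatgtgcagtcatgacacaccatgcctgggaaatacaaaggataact
Auts2, intergenic: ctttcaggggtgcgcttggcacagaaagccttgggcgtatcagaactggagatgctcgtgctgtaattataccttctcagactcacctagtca

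The scores are read counts over each region, extended to 1000 bp for this mark, which the authors normalized between libraries and rounded. The read depth is unknown. The median region scored 5 to 8 in the CV libraries, 6 in each ENR library and 9 in each EN library. In CV1 and EN2 the scores came in steps. Local maxima of the smoothed score distribution stood at 3, 10, 19 and 27 in CV1 and at 2, 9, 16 and 24 in EN2. Other libraries had local maxima as well, such as CV3 at 2, 6 and 11. Whether such a step is the score of 1 read was not tested. Between EN and CV, RNA went with the labels. The stem cell genes Lgr5, Axin2 and Olfm4 were lower in EN, and the enterocyte genes Alpi, Anpep and Fabp1 were higher. Against ENR, however, CV did not have more RNA of these stem cell genes. Olfm4 was at 10.9 ± 6.42 CPM in CV and 1230 ± 61.7 in ENR (SD, n = 4). Lgr5 was at 90.1 ± 3.62 and 129 ± 4.88, and Axin2 at 69.3 ± 4.34 and 80.7 ± 4.34. Of the enterocyte genes, Fabp1 was higher in CV than in ENR (3190 ± 168 against 1460 ± 94.0), and Alpi and Anpep were lower. CV against ENR was not tested in RNA. All 8 epithelial markers tested had reads in every library. Of 18 mesenchymal, endothelial and immune markers, 6 had a fitted RNA value, and the leukocyte genes Ptprc (0.0331 ± 0.0663 CPM in CV against 2.64 ± 0.673 in EN, SD, n = 4) and Itgam (4.29 ± 1.07 against 14.9 ± 2.00) were higher in EN, as was the mesenchymal marker Vim. Col1a1, Col1a2 and Acta2 reached at most 1.21 CPM in any CV or EN library, and their differences did not pass the test. On the log2 scale, Col1a1 (-2.25, edgeR adjusted p = 0.0102) and Acta2 (-1.12) were lower in EN, unlike Vim, and Col1a2 (0.2) was higher.

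H3K27me3 rose in EN at 39 regions and fell at 115 of the 94466 regions tested (limma on log2(score + 1), Benjamini-Hochberg adjusted p under 0.01), that is 0.0413% and 0.122% of regions and 0.163% in either direction. At an adjusted p under 0.05, 132 regions rose (0.140%) and 367 fell (0.388%), 0.528% in either direction. The median difference over all regions was 0.152 on the log2 scale, EN minus CV, and every difference given here stands beside that shift. The regions at which the mark rose were almost bare in CV, with median scores of 3, 4 and 4 in the CV libraries against 43, 34 and 41 in EN. Those at which it fell were among the highest scoring in CV, with medians of 212, 178 and 205 against 33, 50 and 43.

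**Figure D1:**
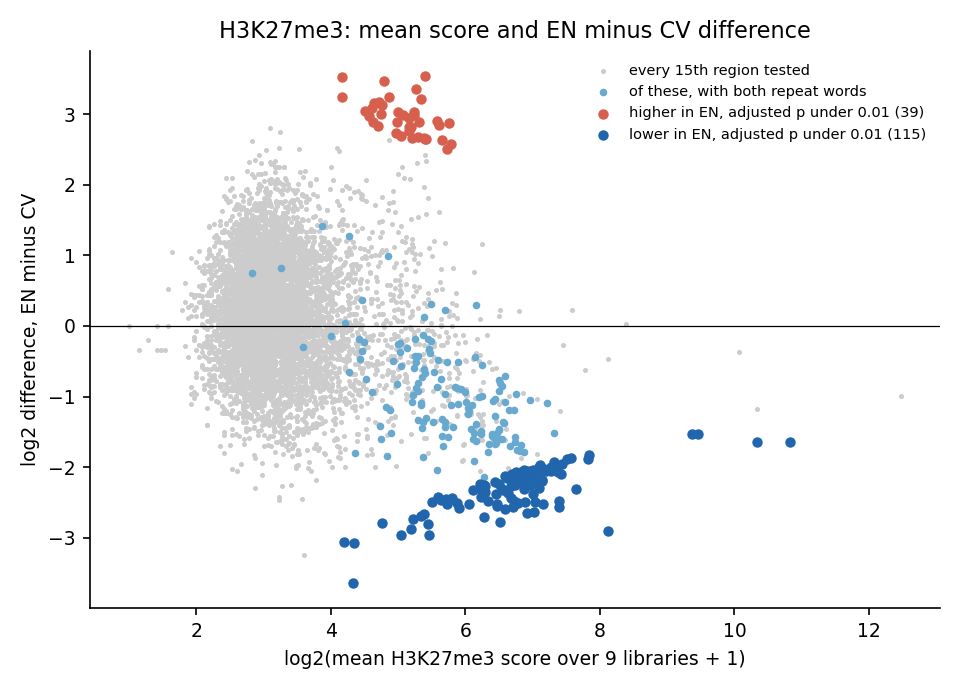
Each gray point is 1 of every 15 regions tested, with log2(mean H3K27me3 score over the 9 libraries + 1) on the x axis and the fitted log2 difference, EN minus CV, on the y axis. Light blue points are those of them with both repeat words, red points the 39 rises and dark blue points the 115 falls, which lie mostly at higher mean scores than the rises.

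These counts depended on how the libraries were scaled and on single libraries. With quantile normalization, 52 regions rose and 4 fell, so that 92.9% of the calls were rises instead of 25.3%, and the median over all regions was -0.011. With every library set to an equal sum, 46 rose and 46 fell (50.0% rises), with a median of 0.255. Of the 39 rises 34 were called again after quantile normalization, and of the 115 falls 4. Leaving out CV1, CV2 or CV3 left 9, 11 and 11 rises and 4, 10 and 1 falls. Leaving out EN1 gave 6 and 46, EN4 gave 2 and 15, and EN2 gave 36 and 137.

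The scores of all regions summed to 1163281, 1263040 and 1327017 in CV1, CV2 and CV3 and to 1116702, 1145722 and 1183963 in EN1, EN2 and EN4. The CV and EN sums overlapped (difference of the means -8.18%, exact permutation test, two-sided, p = 0.2, where 3 against 3 libraries cannot go below 0.1). Next, the 1000 regions with the highest mean score over the 9 libraries were taken. That mean includes the compared CV and EN libraries, so regions high in CV alone can be among them. The 1000 regions held 23.1%, 18.6% and 19.1% of the sum in CV and 11.5%, 11.7% and 10.3% in EN. Every EN library lay below every CV library in this share (11.2% ± 0.757 against 20.3% ± 2.47, SD, n = 3, exact permutation p = 0.1, the smallest that this design allows). ENR3 lay with the EN libraries at 11.8%, and ENR2 and ENR4 lay with the CV libraries at 19.6% and 19.5%.

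The rises included CpG-rich start sites. Of the 39 regions, 16 (41.0%) lay within 500 bp of an annotated start site, against 19.1% of all regions tested, 10 were intronic, 12 intergenic and 1 exonic. Their extended windows held a median of 52 CpG per kb (all regions 12) and 58.9% G and C (all regions 47.0%). Merging regions closer than 5 kb left 31 loci. At an adjusted p under 0.05, the share of regions that rose was 0.0236% among windows with fewer than 10 CpG per kb and 0.522% among those with at least 50, whereas the share that fell was highest, 1.12%, between 20 and 30 CpG per kb. In all 39 regions the ENR scores lay above the CV scores without overlap, and in 33 of 39 the ENR mean was above the EN mean too. The same CV and EN scores chose the 39 regions, and the ENR scores entered the spread and the mean of that fit. In a fit of the 6 CV and EN libraries alone, 29 of the 39 were called again. The ENR counts are therefore not independent of the choice. No share over all regions is given beside them, so they are a description.

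Rbpms and Igf2bp3 encode RNA-binding proteins. At the start site of Rbpms, an RNA-binding protein known from muscle and other mesenchymal tissue, scores were 3, 8 and 2 in CV, 38, 65 and 76 in ENR and 63, 47 and 37 in EN. All ENR and EN libraries lay above all CV libraries (log2 difference 3.36 ± 0.61 SE, 10.3-fold on the scale of score + 1, adjusted p = 0.000478). A region 1.95 kb from the start site rose as well, from 2, 1 and 1 in CV to 25, 16 and 22 in EN (3.24, adjusted p = 0.00568). Igf2bp3, a fetal mRNA-binding protein, went from 3, 3 and 6 in CV to 56, 14 and 37 in EN, with ENR at 35, 38 and 81 (2.73 ± 0.63, adjusted p = 0.00978). EN2 was the lowest EN library there and still above every CV library.

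Among transcription factors, Trerf1, a zinc finger regulator, scored 3, 8 and 2 in CV and 61, 22 and 59 in EN (3.21 ± 0.61, adjusted p = 0.0008). Gli1, the zinc finger effector and target of Hedgehog signaling, scored 3, 3 and 11 in CV, 46, 34 and 99 in ENR and 53, 43 and 27 in EN (2.81 ± 0.61, adjusted p = 0.00525). EN and CV did not overlap at either gene, and ENR overlapped EN at both. A neighboring region 512 bp from the Gli1 start site rose too, from 3, 2 and 4 to 32, 47 and 31 (3.24, adjusted p = 0.00176). The homeobox gene Mkx, a regulator of tendon, rose from 3, 3 and 2 to 20, 22 and 35 (2.83, adjusted p = 0.0094), and Sp6, a zinc finger factor of the Sp family, from 2, 4 and 11 to 53, 21 and 37 (2.66, adjusted p = 0.00893). EN libraries exceeded CV libraries at both.

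At Vim, which encodes the mesenchymal intermediate filament vimentin, scores were 3, 13 and 2 in CV, 61, 79 and 31 in ENR and 39, 42 and 43 in EN. The EN libraries were close to each other and all above CV2, the highest CV library (2.94 ± 0.61, 7.67-fold, adjusted p = 0.0033). Further start sites were those of Kcnh3, a potassium channel, Vgf, a neuropeptide precursor, Rims2, a presynaptic scaffold, Cdk5r2, an activator of the kinase Cdk5, and Ntng2, a netrin-like membrane protein. Their EN scores ranged from 23 to 80 and their CV scores from 1 to 25, with log2 differences between 2.63 and 2.90 and adjusted p from 0.00224 to 0.00849. Rims2 had the highest single CV score, 25 in CV3, just under its lowest EN score of 27. Fut2, the fucosyltransferase of gut epithelium, went from 2, 7 and 2 to 48, 13 and 41 (2.88, adjusted p = 0.00605), Rnf220, a ubiquitin ligase, from 3, 5 and 11 to 57, 34 and 34 (2.65, adjusted p = 0.00668), and the predicted gene Gm9924 from 3, 1 and 4 to 22, 17 and 46 (2.98, adjusted p = 0.00668). The highest adjusted p over the alternative settings lay between 0.128, for Rbpms, and 0.351, for Rims2, so none of the 15 named start-site rises passed under every setting.

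**Figure D2:**
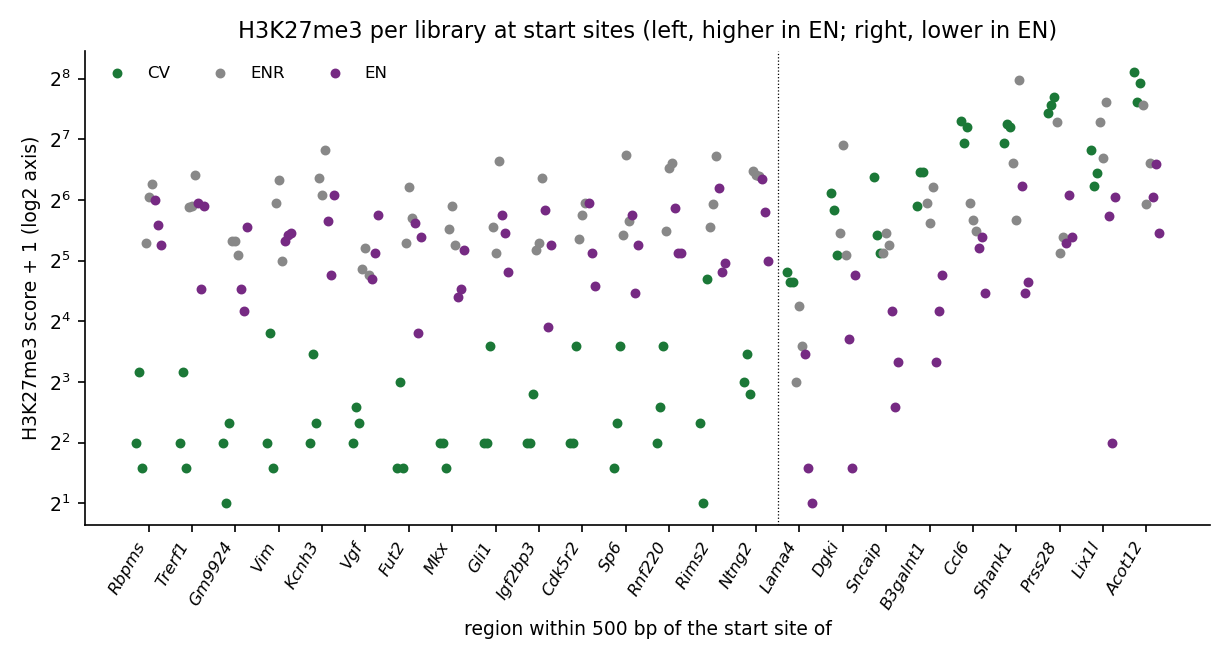
H3K27me3 score + 1 of each library (y axis, log2 scale) at regions within 500 bp of a start site, the 15 named rises left and the 9 largest named falls right of the dotted line, with CV in green, ENR in gray and EN in purple. At each gene every EN point lies on the same side of every CV point.

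Away from start sites, the largest rise was in an intron of Hoxc6, a homeobox gene of the trunk and hindgut axis, and its central bases are printed here among the rises. It scored 2, 1 and 6 in CV, 89, 84 and 65 in ENR and 25, 54 and 45 in EN (3.54 ± 0.62, 11.6-fold, adjusted p = 0.000329). The Pdgfc intron, of a ligand for the PDGF receptors, scored 2, 2 and 1 in CV and 19, 36 and 36 in EN (3.52 ± 0.70, adjusted p = 0.00178) although its printed sequence has no CpG. An intron of Lhx6, a LIM homeobox factor of interneurons, went from 2, 5 and 1 to 18, 48 and 52 (3.47 ± 0.65, adjusted p = 0.0008). At these 3 regions no library of EN reached down to a library of CV.

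Of 39 Hox genes, 24 had a start-site region, with median scores of 23 to 27 in CV, 63 to 94 in ENR and 25.5 to 43.5 in EN libraries. Of these 24 regions, 2 rose at an adjusted p under 0.05 and none fell, beside 0.282% higher and 0.0885% lower of all 18086 regions at start sites. Hoxa7 scored 2, 24 and 11 in CV and 33, 54 and 47 in EN (2.21 ± 0.58, adjusted p = 0.0362). The Hoxc6 start site scored 11, 2 and 16 in CV, 75, 82 and 88 in ENR and 38, 26 and 64 in EN (2.27 ± 0.58, adjusted p = 0.0278). The median difference of the 24 regions was 0.465 against 0.213 for all start-site regions. Averaged over the 26 regions of the Hoxa cluster (chr6:52105366-52210874), the mean score was 14 ± 2.16 in CV and 22.8 ± 5.21 in EN (SD, n = 3), 1.63-fold, with no overlap (exact permutation p = 0.1, the smallest possible). The 18 regions of Hoxc (chr15:102751534-102867274) averaged 22.6 ± 2.43 and 38.1 ± 9.55, 1.69-fold, also without overlap (exact permutation p = 0.1). The 29 regions of Hoxb (chr11:96055630-96229570) averaged 23.9 ± 2.5 and 38.6 ± 11.8 with overlapping libraries (exact permutation p = 0.2). Hoxd (chr2:74506367-74603200) was the exception, with 42.0 ± 3.27 over 19 regions in CV and 39.3 ± 11.3 in EN (exact permutation p = 0.9). In ENR the clusters averaged 34.2, 80.1, 69.2 and 82.8 for Hoxa, Hoxb, Hoxc and Hoxd, each above the CV and EN means of the same cluster. Neighboring regions of a cluster can share reads, since each was extended to 1000 bp.

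Other lists of developmental genes had few calls. Among transcription factors of other tissues, 1 of 86 start-site regions rose and 0 fell at an adjusted p under 0.05 (median difference 0.372). The exception was Nkx6-1, the homeobox factor of pancreatic β cells and motor neurons, from 3, 5 and 6 to 59, 26 and 20 (2.55 ± 0.63, adjusted p = 0.0201). Among signaling ligands and antagonists, 2 of 48 rose and 0 fell (median -0.101), namely Gli1, listed with the Hedgehog genes, and Fgf9, an epithelial and mesothelial growth factor, which went from 3, 8 and 2 to 20, 43 and 25 (2.60 ± 0.63, adjusted p = 0.0181). The list of mesenchymal, endothelial and immune markers had 5 regions, of which Vim rose and none fell (median 1.302). None of 8 regions of epithelial markers, 6 of cell cycle inhibitors, 34 of Polycomb genes, 10 of fetal-type and Yap target genes and 16 of goblet, Paneth, tuft and enteroendocrine genes passed the test, counts that cannot be told from the shares of 0.282% and 0.0885% called among all start-site regions.

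**Figure D3:**
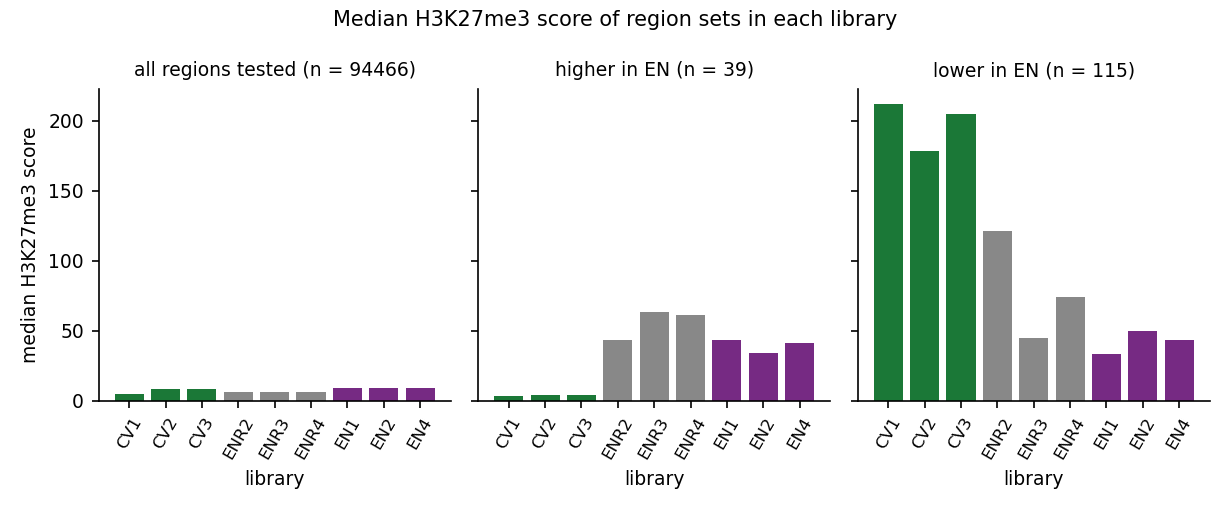
Bars show the median H3K27me3 score (y axis) of each library (x axis, CV green, ENR gray, EN purple) over all 94466 regions tested, the 39 rises and the 115 falls. At the rises the CV libraries stand at 3 to 4 and the others at 34 to 63, and at the falls the CV libraries stand at 178 to 212 and the others at 33 to 121.

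At the start sites of 29 stem cell and Wnt target genes, 27 secretory lineage factors and 32 enterocyte genes, 0 regions passed an adjusted p of 0.05 (limma), which at 0.282% higher and 0.0885% lower among all start-site regions says little about lists of this size. The median differences were 0.779, 0.298 and 0.035, against 0.213 for all start-site regions. EN scores lay above CV scores without overlap in 7 of 29, 6 of 27 and 3 of 32 regions, beside 1528 of all 18086 start-site regions and 7.17% of all regions. EN scores lay below in 0, 1 and 1, beside 596 of the 18086 start-site regions and 5.18% of all regions. These counts of EN below CV, 0, 1 and 1, are too small to be told from those shares. Whether the counts of EN above CV exceed their shares was not tested. Ascl2, the master factor of crypt stem cells, scored 7, 10 and 2 in CV and 16, 27 and 29 in EN, without overlap (1.92 ± 0.70, adjusted p = 0.261). At Lgr5, the region with the highest mean score at the start site had 12, 5 and 19 in CV and 18, 36 and 14 in EN, which overlap (0.92 ± 0.68, adjusted p = 0.736). A second Lgr5 region next to it (chr10:115024468-115025077), picked after its values were seen, scored 7, 2 and 2 in CV, 3, 18 and 12 in ENR and 25, 31 and 35 in EN (2.90 ± 0.71, adjusted p = 0.0193). Its EN scores exceeded those of both other cultures. Sox9, a factor of the crypt base (3, 5 and 7 in CV against 8, 10 and 3 in EN), Atoh1, the switch to the secretory fate (3, 7 and 17 against 21, 10 and 12), Cdkn2a, the cell cycle inhibitor locus often silenced by Polycomb (25, 17 and 43 against 20, 42 and 46), Alpi, the brush border phosphatase (12, 14 and 16 against 3, 18 and 20), and Hnf4g, a nuclear receptor of enterocytes (3, 7 and 12 against 4, 10 and 16), overlapped between CV and EN, with adjusted p from 0.907 to 0.941 for all but Atoh1 (0.786).

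Many regions with rising H3K27me3 were less accessible in EN. ATAC-seq, which measures open chromatin, was called lower in EN at 18 of the 39 rises (46.2%) and higher at 0, where 10.2% of all regions were called lower and 14.3% higher (limma, adjusted p under 0.01, 4 libraries a culture). The median ATAC difference over the 39 regions was -1.189 on the log2 scale, against 0.051 over all regions, and the median ATAC score was 8 in CV, 3.25 in ENR and 2.5 in EN. Leaving out each ATAC library in turn gave 13 to 17 of 39. At the 132 rises of the looser threshold, 59 (44.7%) were called lower in ATAC and 1 higher. H3K27ac, the mark of active enhancers and promoters, was called lower at 2 of 39 (5.13%, against 0.538% of all regions), and H3K4me3, the mark of active start sites, at 3 of 39 (7.69%, against 0.651%), and neither was called higher at any of the 39 rises (background 2.68% and 1.52%).

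**Figure D4:**
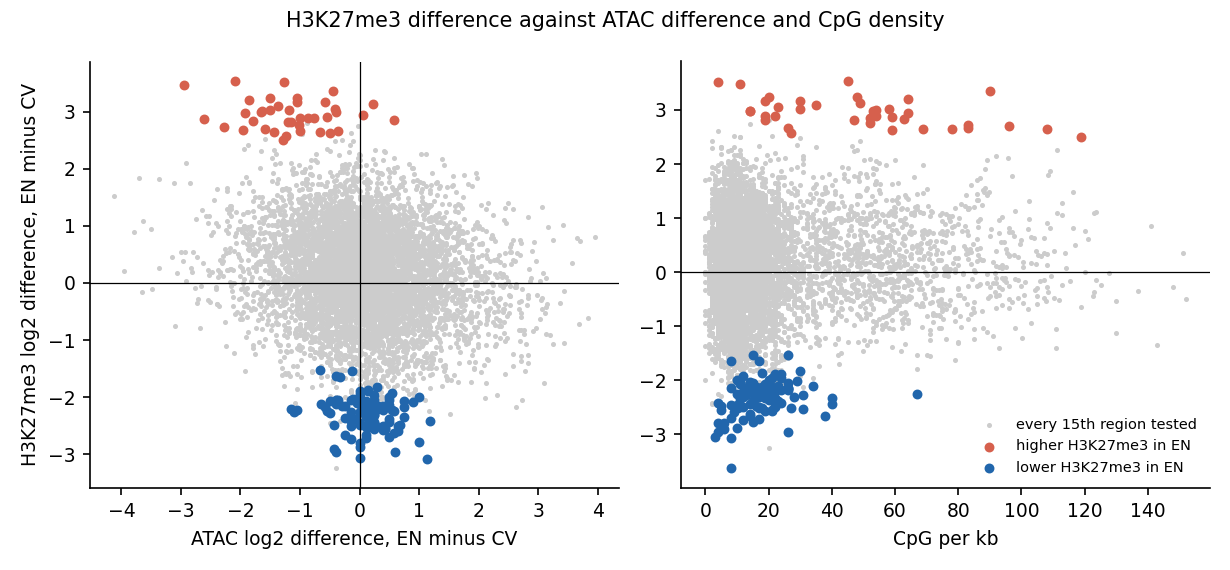
The fitted H3K27me3 log2 difference, EN minus CV (y axis), is plotted against the ATAC log2 difference, EN minus CV (left x axis), and against the CpG per kb of the extended window (right x axis), with rises in red, falls in blue and 1 of every 15 regions tested in gray. Most rises lie left of 0 in ATAC, with a median of -1.189, and reach to high CpG density, whereas the falls lie around 0 in ATAC. The falls have a median of 16 CpG per kb, below the 52 of the rises and above the 12 of all regions.

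The RNA table covers transcripts whose proteins the study had quantified, so many silent genes have no value in it, the 39 Hox genes included. Of the 42 protein-coding genes with a start-site region that rose at an adjusted p under 0.05, 13 had an RNA value, of which 8 were lower in EN, 4 higher and 1 not called. Of all 9288 transcripts tested, 41.2% were lower and 35.2% higher (edgeR quasi-likelihood test, adjusted p under 0.01), so the share of lower genes, 61.5% of 13, rests on a small number. Rbpms RNA was 4.58, 5.47, 4.24 and 3.37 CPM in CV and 0.804, 0, 0.178 and 0.288 in EN (log2 difference -3.56, adjusted p = 4.81e-06), so all EN libraries lay below all CV libraries. Igf2bp3 fell from 50.3 ± 1.44 to 18.4 ± 2.38 CPM (SD, n = 4, adjusted p = 1.08e-09) and Rnf220 from 46.0 ± 1.42 to 33.8 ± 6.01 (adjusted p = 0.00105). Lgr5 RNA went from 90.1 ± 3.62 to 1.81 ± 0.778 CPM (-5.55, adjusted p = 1.9e-15), while it was 129 ± 4.88 in ENR.

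Further genes with start-site rises at the looser threshold and lower RNA were Casc4, a Golgi protein, Hip1, an endocytic adaptor, Mpp2, a membrane scaffold, and Slc43a1, an amino acid transporter. Casc4 scored 3, 3 and 6 in CV and 35, 22 and 38 in EN for H3K27me3 (2.72 ± 0.64, adjusted p = 0.0122), and its RNA went from 159 ± 10.2 to 19.7 ± 8.48 CPM. The RNA of Hip1 differed by -3.38, of Mpp2 by -3.86 and of Slc43a1 by -4.18 on the log2 scale. All of these genes had RNA in every CV library. The opposite was seen at Vim, whose RNA rose from 2.96 ± 0.309 to 23.3 ± 3.11 CPM (2.97, adjusted p = 1.31e-11) while its mark rose, at Synpo, an actin-associated protein (RNA 1.42, adjusted p = 8.72e-08), and at Tpm1, a tropomyosin (0.67, adjusted p = 2.1e-07). Which cells carry the mark and which the RNA at these genes was not tested.

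**Figure D5:**
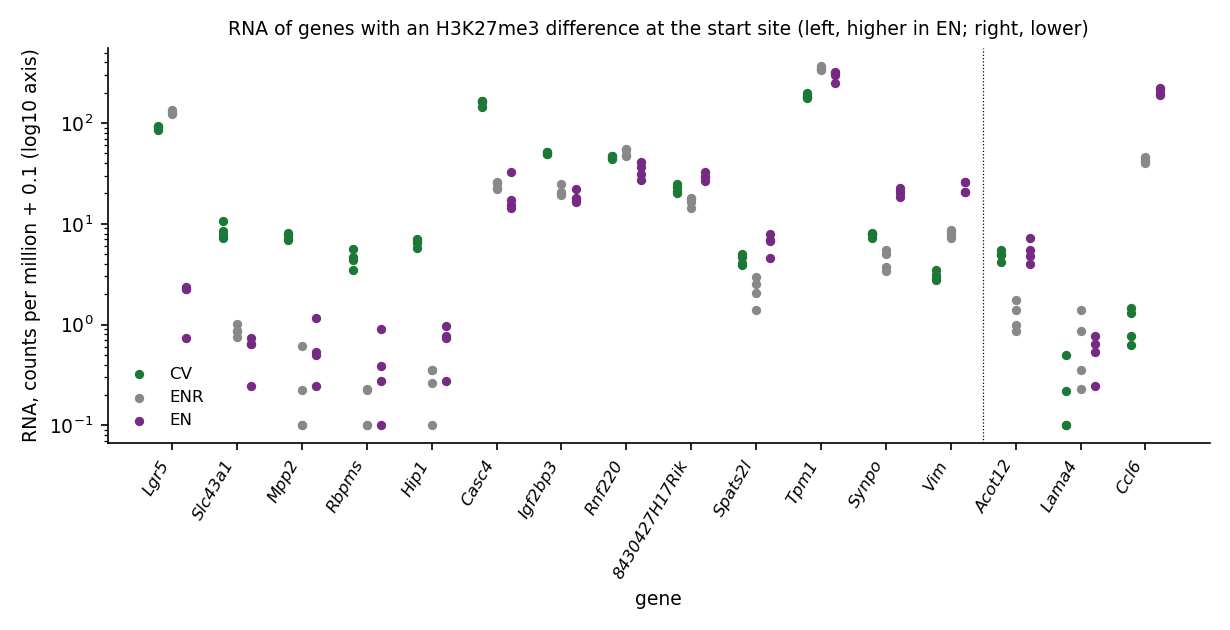
RNA as CPM + 0.1 (y axis, log10 scale) of each library for the genes with an RNA value and an H3K27me3 call at the start site (adjusted p under 0.05), 13 with a rise left and 3 with a fall right of the dotted line, with CV in green, ENR in gray and EN in purple. At Rbpms the 4 EN points lie below the CV points, and at Vim and Ccl6 above them.

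The falls had other features. Only 1 of the 115 (0.87%) lay within 500 bp of a start site, 65 were intergenic and 48 intronic, and they formed 115 loci, so no fall lay within 5 kb of another. Their sequences shared short tandem repeats of alternating bases. The central 250 bases held the 8-letter word ACACACAC (or GTGTGTGT on the other strand) in 74.8% of the falls against 6.44% of all regions, and GCGCGCAC (or GTGCGCGC) in 65.2% against 2.79%. Both words, which can overlap within a run, stood together in 70 of 115 falls (60.9%), in 0 of 39 rises and in 1780 of all regions (1.88%). A run of at least 20 bases of CG and CA steps beside CGCG was found in 81 of 115 falls (70.4%), against 2.18% of all regions. These words were found among the falls themselves, so their shares are a description. In addition, 14 of 115 falls (12.2%) lay in sequence whose 24-mers occur more than once in the genome, against 3.4% of all regions and 0 of the 39 rises.

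Across all 1780 regions with both words, which were picked for their share among the falls and are described without a test, 70 fell and 0 rose at an adjusted p under 0.01, and 207 fell and 1 rose at 0.05. Their median difference was -1.127, against 0.152 for all regions, and 1052 had EN scores below CV scores without overlap, against 5.18% of all regions. Their median scores were 74, 80 and 79 in CV, 62, 26 and 38 in ENR and 30, 49 and 33 in EN. Without these regions 31 rises and 32 falls were called, and in regions whose 24-mers are single-copy there were 35 and 76. Both alternatives were chosen after the data were seen. ATAC was called lower at 1 of 113 falls that could be tested and higher at 0, with median scores of 1.00 in CV and 1.25 in EN. H3K27ac scores at the falls had medians of 22.3 in CV, 10.7 in ENR and 10.3 in EN, against 5.00, 3.00 and 4.00 over all regions. The median H3K27ac difference was -0.781, against -0.138 over all regions, with 0 of 115 called by limma (background 2.68% higher and 0.538% lower). H3K4me3 had 2.67, 1.00 and 3.67, against 1.33, 0.667 and 1.33, with 0 of 110 called (background 1.52% and 0.651%). Whether the high scores at the falls are particular to H3K27me3 was not tested.

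The intergenic region near Calcoco1 shows the pattern. It scored 373, 260 and 319 in CV, 167, 64 and 158 in ENR and 32, 72 and 62 in EN (-2.56 ± 0.45, adjusted p = 0.000329). The region near Zfp365 scored 207, 205 and 246 in CV and 38, 25 and 41 in EN, with ENR at 156, 71 and 94 (-2.65 ± 0.47, adjusted p = 0.000436). The lowest CV library was far above the highest EN library at both. ENR lay between them near Zfp365 and overlapped EN near Calcoco1. The largest falls by fold, however, did not hold both words: near Atp6v1g3 (35, 46 and 53 in CV against 1, 1 and 11 in EN, -3.63), Kcnk9 (24, 52 and 25 against 9, 1 and 2, -3.06) and 5830405N20Rik (62, 52 and 62 against 4, 8 and 9, -2.96), the 24-mers had a median of 3950, 4811 and 3491 copies in the genome, and whether read pairs there map to 1 place was not tested. Those near Slco5a1 (57, 29 and 32 against 23, 1 and 1, -3.07, adjusted p = 0.00714) and Auts2 (91, 91 and 96 against 20, 13 and 5, -2.95 ± 0.58, adjusted p = 0.00137) lay in single-copy sequence.

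Few falls reached start sites, and none of those at protein-coding genes passed an adjusted p of 0.01, the 1 fall so close to a start site being at 5530401A14Rik. At 0.05, 16 regions within 500 bp of a start site fell. Ccl6, a chemokine, scored 156, 121 and 146 in CV, 61, 50 and 44 in ENR and 36, 41 and 21 in EN (-2.12 ± 0.51, adjusted p = 0.0144). Every EN library lay below every CV library, but after quantile normalization the difference was -1.47 with an adjusted p of 0.402, within a range of 0.00048 to 0.409 over all alternatives. Ccl6 RNA rose from 0.938 ± 0.399 CPM in CV to 207 ± 15.0 in EN, with 42.4 ± 2.5 in ENR (7.75, adjusted p = 8.15e-17). Ly86, a lymphocyte antigen, scored 209, 124 and 125 in CV against 21, 107 and 32 in EN (-1.80 ± 0.48, adjusted p = 0.0439) and had no RNA value. The leukocyte markers Ptprc and Itgam were also higher in EN RNA, and their part in these values was not tested.

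The other start-site falls included Lama4, a laminin of vessels and muscle (27, 24 and 24 against 10, 2 and 1, -2.68 ± 0.71, adjusted p = 0.0383), Dgki, a diacylglycerol kinase (68, 56 and 33 against 12, 2 and 26, -2.33), Sncaip, the synuclein-binding synphilin (82, 42 and 34 against 17, 5 and 9, -2.28), and B3galnt1, a glycosyltransferase (59, 87 and 87 against 9, 17 and 26, -2.19, adjusted p = 0.0204). At these 4 genes CV and EN did not overlap. Shank1, a postsynaptic scaffold (-2.02), Prss28, a serine protease (-1.98), Lix1l (-1.91) and Acot12, a liver-type acyl-CoA thioesterase (-1.85), fell with adjusted p between 0.0145 and 0.0339. With quantile normalization, the adjusted p of the start-site falls named here rose to between 0.0793 and 0.699, so none of them passed (0.000386 to 0.823 over all alternatives). Lama4 and Acot12 RNA did not pass the test (adjusted p = 0.129 and 0.631).

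The regions with the highest H3K27me3 scores mostly had lower scores in EN. Of the 1000 regions with the highest mean over the 9 libraries, 88 fell and 0 rose at an adjusted p under 0.01, and 256 fell and 2 rose at 0.05, with a median difference of -1.351. EN lay below CV without overlap in 735 of them. Over all regions tested, 0.122% fell and 0.0413% rose at 0.01, and 0.388% fell and 0.140% rose at 0.05. EN lay below CV without overlap in 5.18% of all regions. The mean that ranked the regions includes the CV scores, so regions high in CV alone can be among the 1000. Their median H3K27ac scores were 21.7 in CV, 10.3 in ENR and 11.3 in EN, against 5.00, 3.00 and 4.00 over all regions. H3K4me3 had 2.67, 1.33 and 5.00, against 1.33, 0.667 and 1.33. Whether the high scores of the 1000 regions are particular to H3K27me3 was not tested. With quantile normalization the median was -0.424, with 1 fall and 3 rises. Of these 1000 regions, 505 held both repeat words, with a median difference of -1.555, and 160 of the others had at least 30 CpG per kb, with a median of -0.437, which became 0.235 with quantile normalization. The remaining 335 regions, with neither feature, had a median of -1.257 with 25 falls at an adjusted p under 0.01, and EN lay below CV without overlap in 242 of them. Median scores in that CpG-rich class were 77, 100 and 93 in CV, 110, 114 and 220 in ENR and 102, 47.5 and 54 in EN, so EN1 lay with the CV libraries. Among the 5000 highest regions, 2330 were CpG-rich, of which 17 rose and 4 fell (median -0.049), 70 of 1415 with both words fell and 0 rose (median -1.231), and 37 of the other 1255 fell and 6 rose (median -0.93).

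The RNA of the PRC2 core subunits Ezh2, Eed and Suz12 was lower in EN and that of Ezh1 and the demethylases was higher. Of 35 Polycomb and H3K27 demethylase genes, 26 had an RNA value, of which 16 were lower, 6 higher and 4 not called, beside the 41.2% and 35.2% of all transcripts. Ezh2, the methyltransferase of dividing cells, went from 37.8 ± 3.57 CPM in CV to 24.2 ± 1.61 in EN (-0.64, adjusted p = 2.66e-06), Eed from 51.8 ± 3.94 to 35.4 ± 3.37 (-0.55) and Suz12 from 164 ± 13.4 to 76.2 ± 3.46 (-1.10, adjusted p = 2.3e-10). The accessory subunits Mtf2 (-0.85) and Aebp2 (-0.93) fell too. Ezh1, the methyltransferase of resting cells, rose from 51.4 ± 0.767 to 86.0 ± 3.45 (0.74, adjusted p = 7.96e-10), as did the demethylases Kdm6a, from 53.8 ± 3.20 to 95.6 ± 1.53 (0.83), and Kdm6b, from 9.51 ± 0.684 to 35.3 ± 3.15 (1.90, adjusted p = 2.9e-11). Among readers and PRC1 subunits, Cbx6 (-2.45), Cbx2 (-0.80), Bcor (-1.33) and Pcgf6 (-1.29) were lower, Cbx8 (0.50), Pcgf3 (0.48) and Phc2 (0.35) were higher, and Cbx7, Ring1 and Rybp did not pass the test, nor did Jarid2, an accessory subunit of PRC2.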

How the data were processed

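ChIPmentation of H3K27me3 was analysed in 3 libraries each of CV, ENR and EN organoids, ATAC-seq in 4 and H3K27ac and H3K4me3 in 3 libraries per culture, and RNA-seq in 4. For each region of a union of peaks the authors deposited a score, the reads per region normalized between libraries and rounded to whole numbers. How they normalized is not given in the sources used here. The submitters' processing notes name BWA, Picard, MACS2 2.0, DESeq2, kallisto 0.43.0 and mm9. Regions were extended to 1000 bp for H3K27me3, so that neighbors can share reads. The RNA table that the authors deposited holds, per transcript, the expected counts that kallisto estimated, and these were rounded. TPM and copy number columns, 92 spike-in transcripts, the Hnf4g table and 3 further H3K27me3 libraries of the sample list were not used here.

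Scores are not counts, so DESeq2 was not run on them. Instead log2(score + 1), with a pseudocount of 1, was fitted in limma 3.58.1 (R 4.3.3) with a trended prior variance over all 9 H3K27me3 libraries, the contrast EN minus CV and Benjamini-Hochberg adjustment over the 94466 of 94469 regions above 0 in at least 3 libraries, a filter that removed almost nothing. The other scores were fitted in the same way. The quasi-likelihood test of edgeR 4.0.16 with TMM factors was applied to 9288 of 9481 transcripts, those above 0 in 4 or more of the 12 RNA libraries, and CPM were computed from these counts. Calls used an adjusted p under 0.01, with 0.05 beside it. Start sites come from GENCODE vM1 on mm9, and the start given for a region was read as its first base. CpG density refers to the window of 1000 bp, or to the region if it is longer, and words were sought in the central 250 bases on both strands. Scripts were tested on simulated data. Values without depth allow no counting interval.

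Named genes are the 15 largest rises at an adjusted p under 0.01 within 500 bp of a protein-coding start site whose EN and CV scores do not overlap, the falls of the same kind at an adjusted p under 0.05, since fewer than 15 passed 0.01 (11 met this, of which 1 is not reported here), 1 region per gene, the 5 largest at 0.01 farther away in each direction, list members called at 0.05, Lgr5, Sox9, Ascl2, Atoh1, Cdkn2a, Alpi and Hnf4g, and for RNA the Polycomb genes. Other falls printed were among those with the lowest adjusted p of the falls with both words and single-copy 24-mers, chromosome 18 left out. Genes named for their RNA were taken from start-site calls at 0.05. Both were chosen after their values were seen. List members take the start-site region with the highest mean score. The comparison, members and lists were chosen with earlier results of these data known. The labels do not say that libraries came from separate cultures, so p-values measure only the spread between these samples, which may be technical. Deviations of same-numbered libraries from their culture means correlated between -0.0755 and 0.1119, so the numbers were taken as names only. Alternatives changed the pseudocount, filter, scaling, trend, libraries, block, threshold and regions.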

Additional observations from a re-analysis of the deposited data

Results flagged for a closer look

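Among 86 groups of 4 RNA libraries tested with Dixon's ratio, the gap of the most distant library divided by the range of the group, 6 exceeded the 95% critical value, and chance marks about 1 group in 20. The ratio was 0.915 for Lgr5 in EN (0.642, 2.14, 2.16 and 2.28 CPM), 0.914 for Axin2 in EN (1.01, 1.07, 1.07 and 1.71) and 0.865 for Olfm4 in CV (7.14, 7.16, 8.94 and 20.5). Among Polycomb genes it was 0.932 for Cbx7 in CV (20.8, 26.3, 26.4 and 26.7), 0.833 for Cbx8 in EN (17.3, 17.6, 18 and 21.5) and 0.894 for Phc3 in EN (34.6, 35.1, 35.3 and 41.2). The H3K27me3 groups hold 3 libraries and were not tested in this way.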

How the results depend on the processing

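The 39 rises and 115 falls in H3K27me3 became 11 and 70 with a pseudocount of 5, 33 and 53 with a mean score of at least 10, 52 and 4 with quantile normalization, 46 and 46 with equal sums, 0 and 0 without the trend (limma, 8121 regions at an unadjusted p under 0.05, against 8577 as reported) and 41 and 511 in the 6 CV and EN libraries alone. At an adjusted p under 0.05 they were 132 and 367. Leaving out 1 library gave 2 to 36 rises and 1 to 137 falls. Among alternatives chosen after the data were seen, they were 68 and 174 with library weights, 35 and 76 in single-copy regions, 31 and 32 without regions holding both words, and 0 and 0 when regions within 5 kb were merged into loci (limma, 5748 of 56177 loci at an unadjusted p under 0.05, lowest adjusted p 0.104). The cause of these differences was not tested.

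With the replicate number as a block, 7 regions rose and 17 fell. The numbers are names only, so this says nothing of the size of an effect. With that block, 0 regions were called in either direction for H3K27ac and for H3K4me3 (limma, 17197 and 14907 regions at an unadjusted p under 0.05). For H3K27ac, 2525 were higher and 507 lower as reported, 0 and 0 without the trend (17573 at an unadjusted p under 0.05), and 804 to 2160 and 118 to 371 without 1 library. For H3K4me3, the 507 lower became 202 to 912 without 1 library.

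The summed score was -8.18% in EN, -11.3% to -5.31% without 1 library and -49.3% over the 1000 highest regions. With quantile normalization the list medians moved, to 0.775 for Hox genes and 0.363 for cell cycle inhibitors. They changed sign for enterocyte genes (-0.317), signaling ligands and antagonists (0.179) and fetal-type and Yap target genes (-0.143). They became 0.558 for stem cell and Wnt target genes and 0.57 for secretory lineage factors, beside 0.034 for all start-site regions. The median of mesenchymal, endothelial and immune markers was 0.716 within 2000 bp of a start site. Of the regions with the highest mean scores, 23 rises stood among the 5000 highest, and the 1000 highest held 3 rises and 1 fall with quantile normalization. The direction turned at Alpi without EN replicate 1 (0.42, with -0.77 to 0.42 over the libraries left out) and at Hnf4g without CV replicate 1 (-0.06) or EN replicate 4 (-0.01, with -0.06 to 0.87 over the libraries left out), neither of which was called. Of the alternative values of named regions and genes, called or not, 583 stayed on the same side of the threshold with the same direction, 337 no longer passed it and 3 changed direction. Unknown depth limits what the low CV scores at the rises can show.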
